A study of Mus musculus with 2 samples.

Results

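The genes described here encode the subunits of RNA polymerase II and RNA polymerase III, the Mediator complex with its kinase module, and P-TEFb, the kinase that releases paused polymerase. They were chosen by gene symbol alone among protein-coding genes: the Polr2 and Polr3 subunits lettered from a to l, the genes named Med followed by a digit, and Cdk8, Cdk19, Ccnc, Cdk9, Ccnt1 and Ccnt2. The rule gave 58 genes of the 43346 measured, of which 21461 were nuclear protein-coding genes. G1E, the cells measured, is an immortalised mouse line of erythroid progenitors that the labels mark as Gata1-, as male and as strain C57BL/6J. The 2 libraries are biological replicates of 1 group, each total RNA sequencing of RNA longer than 200 nucleotides from 1 ng, with no treatment and no second genotype, so there is no control group. The labels do not say whether the replicates were separate cultures, and a p-value between them measures departure from counting error in these libraries, not an effect of a condition.

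RNA polymerase II transcribes protein-coding genes, and RNA polymerase III transcribes transfer RNAs, 5S ribosomal RNA and other short RNAs. Both are built on a pair of large catalytic subunits and share a set of small subunits with RNA polymerase I. Mediator bridges DNA-bound activators and RNA polymerase II through head, middle and tail modules, and a detachable kinase module with Cdk8 or Cdk19 regulates that contact. In erythroid cells Med1 is known as the subunit through which the transcription factor GATA1 contacts Mediator, and in these cells GATA1 is labelled as lacking.

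Replicate 1 held 31649878 estimated counts and replicate 2 held 40597614, and nuclear protein-coding genes took 8513094 and 7669565 of them. Other RNA classes took a larger part of the count in replicate 2, and the TPM (a level per transcript length, scaled to a fixed sum) of the median detected coding gene was 1.55-fold higher in replicate 1. All 7 erythroid progenitor markers, such as Kit, Gfi1b and Klf1, were detected, with a summed level of 518 TPM in replicate 1 and 321 TPM in replicate 2. The 6 maturation markers summed to 144 and 1012 TPM, and 5 of them were higher in replicate 2. Whether that difference in maturation markers has a part in any value below was not tested. The 8 lymphocyte markers and 4 of 6 stromal and endothelial markers had 0 counts in both libraries. Of 7 myeloid markers, 1 (Spi1) was detected, of 5 mast cell markers 2 (Cpa3 and Hdc), and of 5 megakaryocyte markers 3 (Pf4, Itga2b and Ppbp), with summed levels over each list of 21.5, 55.3 and 25.7 TPM in replicate 1 and 11.0, 27.6 and 15.8 TPM in replicate 2. Gata1 itself had 798 estimated counts in replicate 1 and 649 in replicate 2, and the labels do not say which part of the gene was altered, so these counts do not check the label.

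Nearly all of these subunit genes were measured above the detection limit in these cells. Of the 58 genes, 54 were detected, meaning that they had at least 1 TPM in both libraries. Polr2k, Polr3d and Med12l were among the 4 that were not. By the same limit 8345 of all 21461 nuclear protein-coding genes were detected. Together the 58 genes held 42784 and 36647 estimated counts, which is 0.503% of the nuclear protein-coding count in replicate 1 and 0.478% in replicate 2. Their median level was 9.63 TPM in replicate 1 and 5.79 TPM in replicate 2 (7.71 ± 2.72, SD, n = 2). The median over the 8345 detected nuclear protein-coding genes was 9.31 and 6.08 TPM, so subunit genes lay in the middle of the detected genes rather than at their top. The TPM of 54 genes was higher in replicate 1 and that of 3 in replicate 2, beside the 1.55-fold shift of the median detected coding gene. All SDs of TPM below contain that shift.

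**Figure D1:**
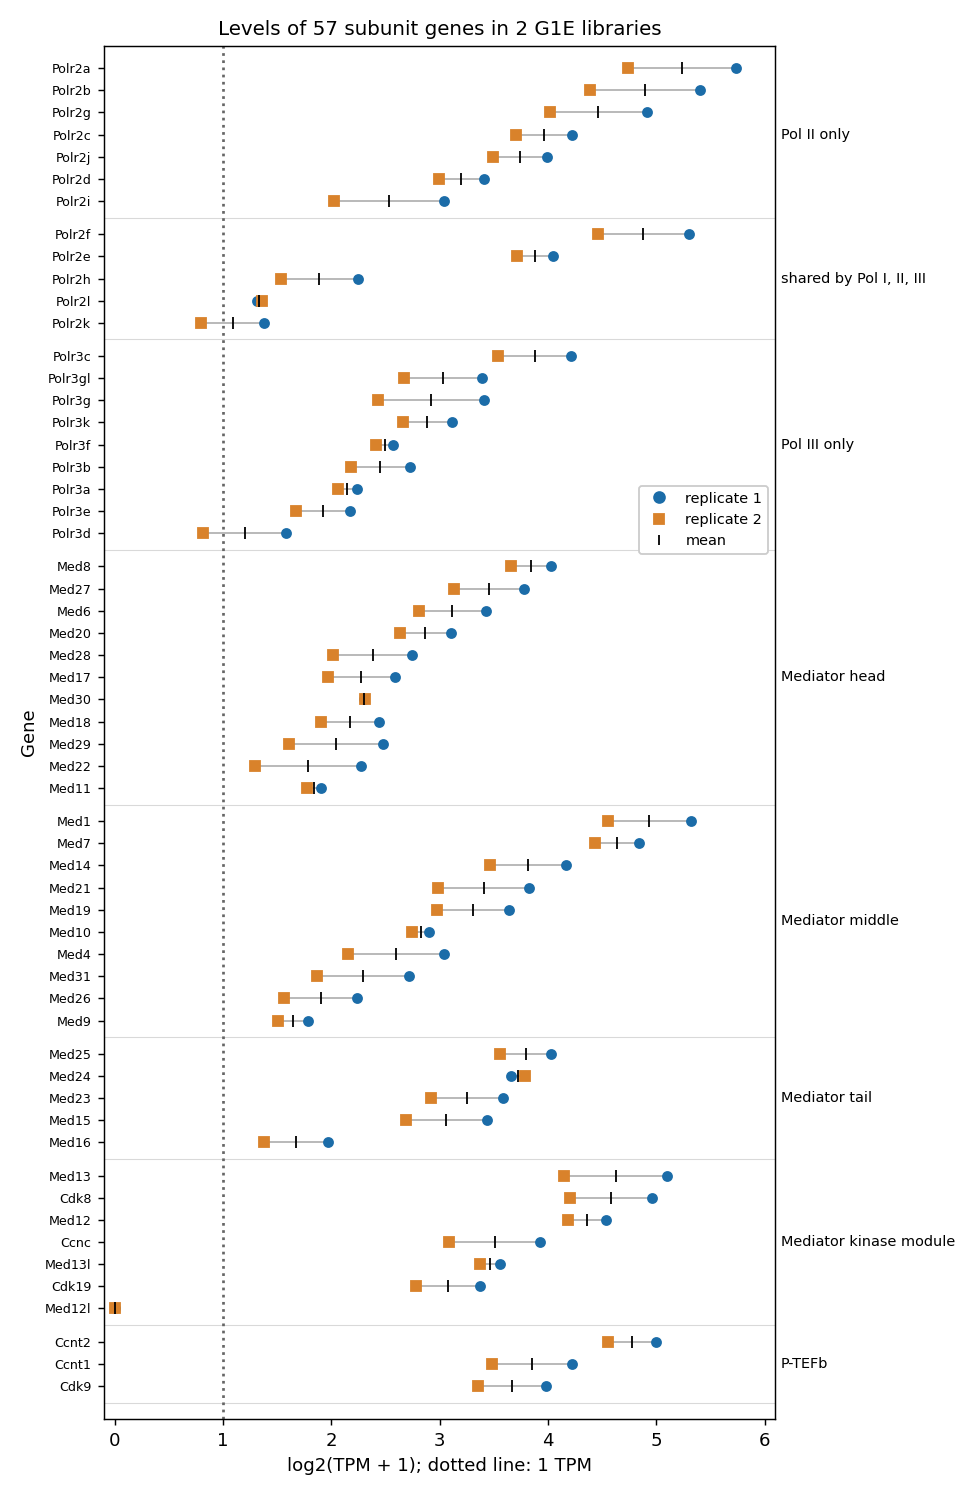
Level of 57 of the subunit genes as log2(TPM + 1), grouped by complex or module and sorted by mean within each group; circles are replicate 1, squares replicate 2, ticks their mean on that scale, and the dotted line is 1 TPM. Polr2a (52.3 and 25.8 TPM) stands furthest right, Med12l is at 0 in both libraries, and the replicate 1 circle lies right of the square for most genes.

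The subunits found in RNA polymerase II alone had the highest group median, just above P-TEFb, at 17.7 TPM in replicate 1 and 12.1 TPM in replicate 2 (14.9 ± 3.97, SD, n = 2). All 7 were detected. Polr2a (ENSMUSG00000005198.11, chromosome 11, 69733997 to 69758637, minus strand, GRCm38) encodes the largest subunit, whose tail of repeats is phosphorylated during initiation and elongation. It had 52.3 TPM in replicate 1 and 25.8 TPM in replicate 2, from 7258 and 4810 counts, and was the highest of the 58 genes in each library. Its mean level was above that of 91.5% of detected coding genes. Polr2b, the second catalytic subunit, had 41.3 and 19.9 TPM, and Polr2g, part of the stalk, had 29.1 and 15.2 TPM. Polr2c and Polr2j, which form the assembly platform, had 17.7 and 14.9 TPM in replicate 1 and 12.1 and 10.3 TPM in replicate 2. Polr2d, the stalk partner of Polr2g, had 9.63 and 6.95 TPM. The lowest was Polr2i, a small subunit that acts in transcription fidelity, with 7.21 and 3.06 TPM from 84 and 46 counts.

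The promoter of Polr2a is shown because this gene led the set. The sequence is the RefSeq window of 250 bases before the annotated start (GRCm38.p6, chr11:69758634-69758883, minus strand), with matches to GGGCGG and TATAAA in capitals.
Polr2a: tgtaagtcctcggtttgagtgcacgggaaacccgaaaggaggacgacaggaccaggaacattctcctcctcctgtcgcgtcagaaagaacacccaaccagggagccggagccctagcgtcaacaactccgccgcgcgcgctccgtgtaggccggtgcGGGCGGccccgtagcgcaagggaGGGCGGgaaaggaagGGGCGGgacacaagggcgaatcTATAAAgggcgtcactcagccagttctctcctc
Its GC content was 62.8%. The letters GGGCGG, the core of a GC box, occurred 3 times, starting 93, 70 and 55 bases before the start, and TATAAA, the core of a TATA box, occurred once, 33 bases before it. Of the 58 genes, 47 had an entry in the promoter table, with 52 promoters. TATAAA on either strand was in 9.62% of these 52 windows (5 of them), in 5.69% of 8538 windows of detected coding genes and in 12.4% of all 32851 windows. The other genes with it were Polr2c, Med7, Med16 and Med28. GGGCGG or its reverse complement CCGCCC was in 65.4% of the subunit windows, 59.99% of those of detected coding genes and 32.7% of all. A match of letters is a description and does not show that a factor binds there.

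The subunits shared by RNA polymerases I, II and III were unequal in level. Polr2f, a small assembly subunit, had 38.4 TPM in replicate 1 and 21 TPM in replicate 2. Polr2e, which contacts DNA entering the enzyme, had 15.5 and 12.1 TPM. The remaining 3 were low, with Polr2h at 3.73 and 1.90 TPM and Polr2l, a zinc-binding subunit, at 1.49 and 1.56 TPM. Polr2k, also zinc-binding, had 1.60 TPM in replicate 1 and 0.74 TPM in replicate 2, from 15 and 8 counts. Although every polymerase molecule of the 3 kinds holds a product of each of these genes, their mean levels spanned 1.17 ± 0.608 to 29.7 ± 12.3 TPM (SD, n = 2). The estimated counts of Polr2l, Polr2c, Med12 and Med20 were not all whole, so reads were divided between each of them and other genes. The counts of the other 54 genes were whole.

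Genes of subunits found in RNA polymerase III alone had lower levels, with a median of 5.28 TPM in replicate 1 and 3.93 TPM in replicate 2 (4.61 ± 0.955, SD, n = 2), and 8 of 10 were detected. Polr3c, part of the subcomplex that opens the promoter, led with 17.6 and 10.7 TPM. The other subunits of that subcomplex were lower, Polr3f with 4.94 and 4.33 TPM, and the alternative subunits Polr3g and Polr3gl with the values given below. The catalytic pair was low: Polr3a, the largest subunit, had 3.70 and 3.17 TPM, and Polr3b, the second, had 5.62 and 3.53 TPM. Polr3k, needed for termination, had 7.65 and 5.32 TPM, and Polr3e, which pairs with Polr3d, had 3.52 and 2.19 TPM. Polr3d had 2.00 TPM in replicate 1 and 0.76 TPM in replicate 2.

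Counterparts of the 2 enzymes, paired after their values were seen, differed most at the catalytic core among the 3 pairs given here. Polr2a was 14.1-fold above Polr3a in TPM in replicate 1 and 8.13-fold in replicate 2. The log2 ratio of (TPM + 1) was 3.50 and 2.68 (3.09 ± 0.58, SD, n = 2). Polr2b was 7.34- and 5.65-fold above Polr3b, a log2 ratio of 2.67 and 2.21. On protein-coding transcripts alone that gap was smaller, a log2 TPM ratio of 1.69 in replicate 1 and 1.47 in replicate 2. Polr2i and Polr3k did not follow this order, with log2 ratios of -0.08 and -0.64, and their deposited credibility intervals overlapped in both libraries. For the catalytic pairs the intervals did not overlap in either library. With 2 libraries the smallest two-sided p of an exact sign-flip test is 0.5, and the ratios between genes were not tested.

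Polr3g and Polr3gl encode alternative forms of 1 subunit, and their summed levels were close. Polr3g, known in mouse for its high expression in pluripotent cells, had 9.63 TPM in replicate 1 and 4.38 TPM in replicate 2. Polr3gl, the more widely expressed form, had 9.52 and 5.37 TPM. The log2 ratio of Polr3g over Polr3gl was 0.015 in replicate 1 and -0.24 in replicate 2 (-0.11 ± 0.18, SD, n = 2), so the sign differed between the libraries. The share of the Polr3g TPM on protein-coding transcripts was 33.2% in replicate 1 and 71.7% in replicate 2. On protein-coding transcripts Polr3g had 3.19 and 3.14 TPM against 9.04 and 4.73 TPM for Polr3gl, a log2 ratio of -0.86 ± 0.56, below 0 in both libraries. Most of that Polr3gl level lay on Polr3gl-204, a transcript of 607 nucleotides with 6.30 and 2.91 TPM from 65.9 and 41.4 counts. The longer coding transcripts were close, with 2.74 and 1.82 TPM for Polr3gl-201 and 2.79 and 2.14 TPM for Polr3g-201. Per count, without length, Polr3g was the higher gene, with 319 and 267 counts against 147 and 119 for Polr3gl.

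The promoters of this pair are printed because the genes encode exchangeable forms with like levels; capitals mark matches on either strand to GGGCGG, to the ETS core CCGGAAG, to the E-box CACGTG and to CCAAT. The Polr3g window is chr13:81711014-81711263 and the Polr3gl window chr3:96594182-96594431, both on the minus strand of GRCm38.p6, from RefSeq.
Polr3g: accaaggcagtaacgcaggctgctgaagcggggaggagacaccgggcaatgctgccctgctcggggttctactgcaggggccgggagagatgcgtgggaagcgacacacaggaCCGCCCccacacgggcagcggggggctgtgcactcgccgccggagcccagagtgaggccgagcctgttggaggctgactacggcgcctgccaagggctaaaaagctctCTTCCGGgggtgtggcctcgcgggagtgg
Polr3gl: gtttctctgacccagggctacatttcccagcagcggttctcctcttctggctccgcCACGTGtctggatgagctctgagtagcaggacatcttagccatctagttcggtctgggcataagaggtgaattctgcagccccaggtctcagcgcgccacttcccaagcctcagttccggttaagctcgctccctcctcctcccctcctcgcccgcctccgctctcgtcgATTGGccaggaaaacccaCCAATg
Polr3g held CCGCCC 137 bases and CTTCCGG 29 bases before its start, and its GC content was 68.4%. Polr3gl held CACGTG 194 bases before its start, ATTGG 24 bases and CCAAT 6 bases before it, and its GC content was 59.2%. Neither window held a motif found in the other. CCGGAAG or CTTCCGG was in 23.1% of the subunit windows, in 16.7% of those of detected coding genes and in 6.91% of all. CACGTG, which reads the same on both strands, was in 7.69%, 8.88% and 6.02% of them.

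The Mediator middle module held the Mediator gene with the highest mean TPM over all transcripts. Med1 (ENSMUSG00000018160.11, chromosome 11, 98152154 to 98193293, minus strand) had 39.0 TPM in replicate 1 and 22.5 TPM in replicate 2, from 2645 and 2275 counts. Its mean, 30.7 ± 11.7 TPM (SD, n = 2), was above that of 88.5% of detected coding genes and the second highest of the 58, next to Polr2b at 30.6 ± 15.1 TPM. That rank did not hold on protein-coding transcripts, where Med1 had a mean of 15.6 TPM (19.1 in replicate 1 and 12.1 in replicate 2), below Med7 (23.1 TPM), Cdk8 (18.0 TPM) and Med13 (17.0 TPM). Med7 had 27.7 and 20.6 TPM, and Med14, the scaffold that joins the modules, had 16.95 and 10.04 TPM. Med26, which recruits elongation factors, was low, with 3.71 and 1.96 TPM, and Med9 was the lowest of the module with 2.45 and 1.84 TPM. Med21, Med19, Med10, Med4 and Med31 had mean levels between 10.1 TPM (Med21, 13.2 in replicate 1 and 6.94 in replicate 2) and 4.12 TPM (Med31, 5.57 and 2.66). The median of the 10 middle genes was 9.37 and 6.28 TPM, so Med1 lay well above most of its module in both libraries.

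The RefSeq window of Med1 is shown because this subunit contacts GATA1. The window is chr11:98192907-98193156 (GRCm38.p6, minus strand), and capitals mark GGGCGG and CCAAT. It lies wholly inside the longer gene of the GENCODE annotation, which starts at 98193293 on the minus strand. The bases before that start were not searched, so the window does not describe a promoter there.
Med1: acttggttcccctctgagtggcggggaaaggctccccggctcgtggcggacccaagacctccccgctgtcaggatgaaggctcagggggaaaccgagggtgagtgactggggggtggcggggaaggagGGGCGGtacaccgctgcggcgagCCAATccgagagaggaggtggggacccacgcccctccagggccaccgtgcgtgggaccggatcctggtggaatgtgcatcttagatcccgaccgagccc
GGGCGG started 122 bases and CCAAT 99 bases before the RefSeq start, and the GC content was 68.0%. The letters GATAA, a form of the core that GATA factors recognise, were not in this window on either strand. GATAA or TTATC was in 17.3% of the subunit windows, 14.6% of those of detected coding genes and 22.6% of all windows. The genes with it were Polr2c, Polr2e, Polr3b, Polr3k, Med13l, Med16, Med22, Med25 and Med27. CCAAT or ATTGG was in 36.5% of the subunit windows, 36.9% of those of detected coding genes and 33.8% of all.

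The head module, which contacts RNA polymerase II most directly, had the lowest median of the Mediator modules, 5.02 TPM in replicate 1 and 3.05 TPM in replicate 2 (4.04 ± 1.39, SD, n = 2), although all 11 genes were detected. Med8 had 15.3 and 11.6 TPM and Med27 had 12.7 and 7.79 TPM. Med17, the architectural centre of the head, had 5.02 and 2.91 TPM. Med22 and Med11, which pair in the head, were lowest, with 3.84 and 2.75 TPM in replicate 1 and 1.45 and 2.42 TPM in replicate 2. The TPM of Med22 was 2.65-fold higher in replicate 1, while its counts were 136 and 132. The average transcript length assigned to it was 1783 nucleotides in replicate 1 and 3223 in replicate 2, and its main transcript differed. The other head genes, Med6, Med20, Med28, Med30, Med18 and Med29, had mean levels between 7.88 TPM (Med6, 9.74 in replicate 1 and 6.02 in replicate 2) and 3.31 TPM (Med29, 4.56 and 2.06). Med30 was the one head gene without a higher TPM in replicate 1, at 3.92 and 3.96 TPM.

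All 5 tail genes, whose products are contacted by activators, were detected, with a median of 10.99 TPM in replicate 1 and 6.57 TPM in replicate 2. Med25, bound by viral and cellular activators, had 15.3 and 10.8 TPM. Med24, which associates with Med23 and Med16, was the one tail gene with a higher TPM in replicate 2, at 11.6 TPM in replicate 1 and 12.8 TPM in replicate 2. Med23 had 10.99 and 6.57 TPM, Med15 had 9.81 and 5.45 TPM, and Med16 was lowest with 2.92 and 1.60 TPM.

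In the kinase module Cdk8, Med13 and Med12 each lay above their paralogue in both libraries. The median of the module was 14.2 TPM in replicate 1 and 9.36 TPM in replicate 2 (11.8 ± 3.44, SD, n = 2). Cdk8, the kinase, had 30.1 and 17.5 TPM, against 9.37 and 5.86 TPM for its paralogue Cdk19. The log2 ratio was 1.58 in replicate 1 and 1.43 in replicate 2 (1.51 ± 0.11, SD, n = 2). By counts, without length, Cdk8 had 1405 and 1154 and Cdk19 had 1131 and 979, a smaller gap than in TPM, with an average assigned length of 2316 in replicate 1 and 2372 in replicate 2 nucleotides for Cdk8, and of 5807 and 5802 for Cdk19. Med13, which links the kinase to core Mediator, had 33.4 and 16.7 TPM, against 10.8 and 9.36 TPM for Med13l, a log2 ratio of 1.54 and 0.77. Med12, which activates the kinase, had 22.2 and 17.2 TPM from 1665 and 1658 counts, while Med12l had 0 counts in both libraries. The deposited upper credibility bounds of Med12l were 0.113 TPM in replicate 1 and 0.0823 TPM in replicate 2, below the lower bounds of Med12, 20.2 and 15.7 TPM. On protein-coding transcripts Med12 had 7.82 and 5.37 TPM, and no fold over Med12l is given. Ccnc, the cyclin of the module, had 14.2 and 7.52 TPM.

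P-TEFb, which phosphorylates polymerase and its pausing factors, was present with both cyclins. The kinase Cdk9 had 14.8 TPM in replicate 1 and 9.20 TPM in replicate 2. Ccnt2 had 30.96 and 22.5 TPM, against 17.6 and 10.2 TPM for Ccnt1. The log2 ratio of Ccnt1 over Ccnt2 was -0.78 and -1.07 (-0.93 ± 0.21, SD, n = 2). On protein-coding transcripts alone it was -0.35 ± 0.24, with 7.98 and 6.00 TPM for Ccnt1 and 11.8 and 6.94 TPM for Ccnt2, so the order held in both libraries and the size of the ratio did not.

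**Figure D2:**
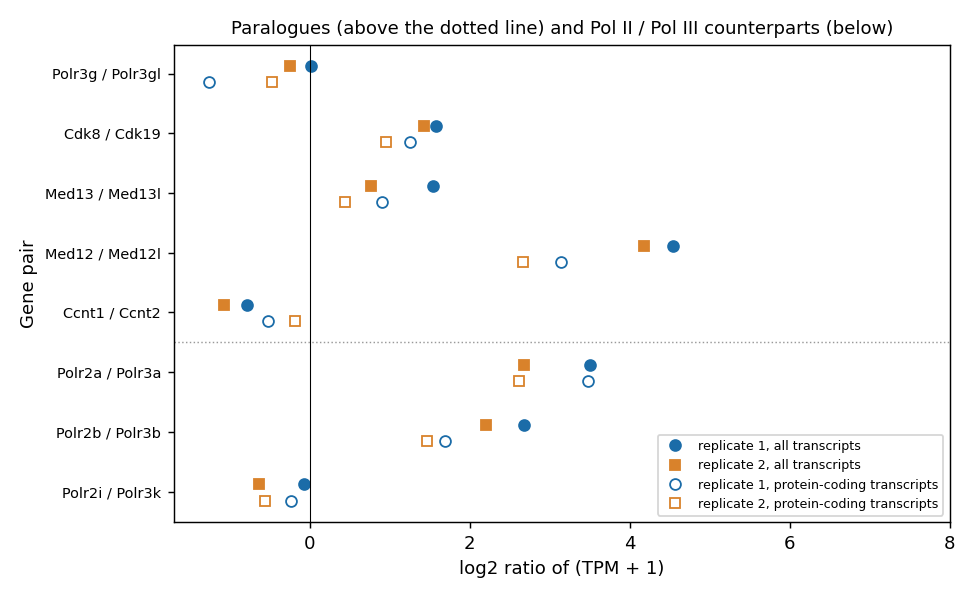
Log2 ratio of (TPM + 1) between paralogues (above the dotted line) and between RNA polymerase II and III counterparts (below it); filled symbols use all transcripts, open symbols protein-coding transcripts, circles replicate 1 and squares replicate 2. Med12 over Med12l is at 4.54 and 4.18, where the size depends on the pseudocount of 1 because Med12l is at 0, and Polr3g over Polr3gl is the pair whose filled symbols lie on both sides of 0.

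Between the libraries no subunit gene passed the test. The ratio of replicate 1 over replicate 2 was taken on counts scaled by the trimmed mean of M values (TMM), which centres the median gene near 1. All 11902 genes with at least 10 counts entered a two-sided exact binomial test. A call needed a p under 0.05 after Benjamini-Hochberg adjustment and a ratio of 2-fold or more. Of the 57 subunit genes tested, 0 were called higher in replicate 1, against 2.22% of all tested genes, and 0 higher in replicate 2, against 5.08%. At an unadjusted p under 0.05 the exact binomial test gave 23 of the 57, none with a 2-fold ratio. A negative binomial exact test called 0, against 0.277% and 2.21% of all tested genes, and had 0 at an unadjusted p under 0.05. Its dispersion was estimated from the same 2 libraries, so the difference between them counts as spread. Its result is therefore no separate support. With a 1.5-fold limit 2 genes were called higher in replicate 1 and 2 in replicate 2, against 3.97% and 7.91% of all. With libraries scaled to total counts in place of TMM, 4 were higher in replicate 1 and 0 in replicate 2, against 8.58% and 3.33%, and with ERCC spike-in scaling 57 and 0, against 97.5% and 0.302%. Ratios ran between 0.612 for Polr2l and 1.70 for Polr3d. Within 1.5-fold lay 52 of the 57 genes (91.2%), against 80.6% of all tested genes. The tested genes include those with as few as 10 counts, while 56 of the 57 had at least 50. These shares are thus not matched for depth. The median log2 ratio was 0.05 for the subunit genes and -0.00 for all genes tested. Of the 8345 detected nuclear protein-coding genes, 11 were called higher in replicate 1 and 125 higher in replicate 2.

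Some of the small ratios exceeded counting error, which is all this test and its intervals cover. By the adjusted p alone, 15 of the 57 genes passed, 9 higher in replicate 1 and 6 in replicate 2, against 15.2% and 17.2% of all tested genes in these directions. Polr2a was 1.35-fold higher in replicate 1 (95% Clopper-Pearson interval 1.30 to 1.40, adjusted p = 2.01e-56 by the exact binomial test). Its catalytic partner Polr2b had a ratio of 1.17 (1.09 to 1.25), and Polr2g and Polr2i had 1.25 and 1.63, so that 4 of the 7 subunits of RNA polymerase II alone passed in this direction and 0 in the other. Polr3a, the RNA polymerase III counterpart of Polr2a, had a ratio of 0.754 (0.653 to 0.869). In the kinase module the paralogues Med13 and Med13l lay on opposite sides of 1, with ratios of 1.06 (1.01 to 1.10) and 0.744 (0.702 to 0.788, adjusted p = 4.64e-22 by the same exact test). Ccnc had 1.27 and Med12 0.896. The others past the adjusted p were Med4 (1.36), Med15 (1.18) and Polr3d (1.70) higher in replicate 1, and Med24 (0.822), Med30 (0.646) and Polr2l (0.612) higher in replicate 2. Med1 was not among them, with a ratio of 1.04 (0.980 to 1.10).

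**Figure D3:**
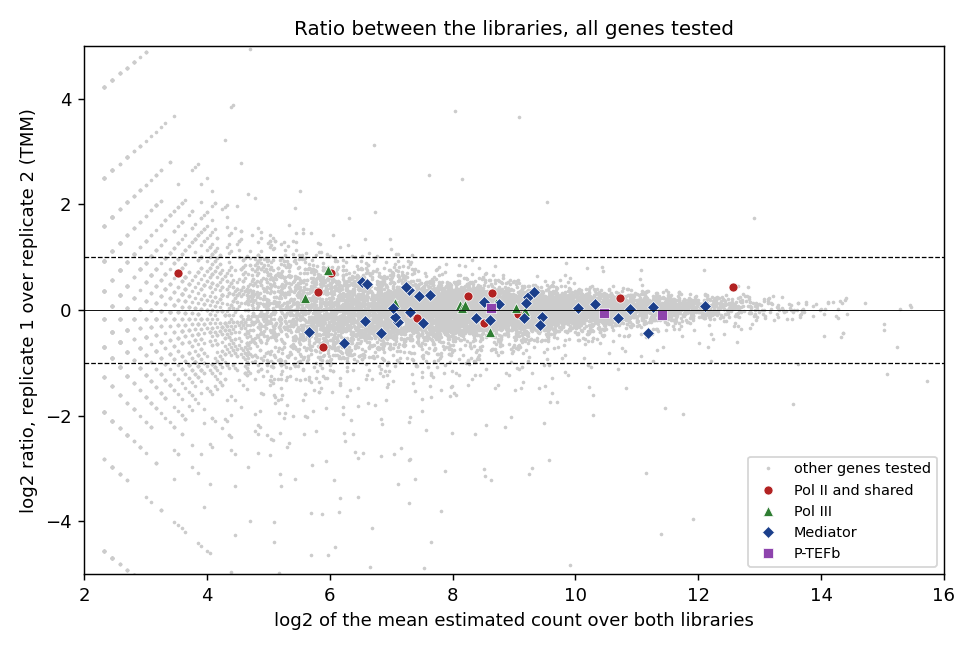
Log2 ratio of replicate 1 over replicate 2 after TMM scaling against the log2 mean estimated count for all genes tested (grey), with RNA polymerase II and shared (red circles), RNA polymerase III (green triangles), Mediator (blue diamonds) and P-TEFb (purple squares) genes; dashed lines mark 2-fold. All 57 tested subunit genes lie between the dashed lines, and 194 of the other genes lie outside the plotted range.

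The division of each gene over its annotated transcripts showed that a high gene level was not always a high level of protein-coding transcripts. Of 57 genes with counts, 17 had 1 annotated transcript and 40 had several. The 17 were wholly protein-coding by annotation, as were genes such as Med18 and Cdk19 with only protein-coding transcripts. For these the share was fixed in advance and not measured. The share was not taken over all detected genes. At least 90% of the TPM lay on protein-coding transcripts in both libraries for 30 genes, which include all those with only protein-coding transcripts. Of the genes that also had other transcript types, only Polr2a, Med7, Med14 and Med19 reached 90% in both. The share was under 60% in both for 8, Med12, Ccnt2, Polr3f, Med28, Med1, Ccnt1, Med27 and Polr2b. Polr2a had 98.7% in replicate 1 and 95.7% in replicate 2. Med1 had 49.0% and 53.8%. Med12 had 35.2% and 31.3%, and Ccnt2 had 38.2% and 30.8%.

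In Polr2b the shorter transcript Polr2b-204, annotated as a retained intron of 509 nucleotides, held 47.6% of the TPM in replicate 1 and 37.5% in replicate 2, but 165 and 84.7 of the 1916 and 1465 counts. TPM divides by length, so a short transcript takes a larger share of TPM than of counts. By counts, 90.7% and 93.1% of Polr2b lay on its protein-coding transcript. For Med1 the share of counts on protein-coding transcripts was 87.3% and 89.9%, mostly on Med1-203 (8024 nucleotides, 1818 and 1691 counts). By counts 38 of the 57 genes reached 90% in both libraries, including those whose share was fixed by annotation. Ccnt2 stayed low by either measure, with 54.4% and 45.2% of its counts, as the long non-coding transcript Ccnt2-207 had 807 and 942 counts. Med12 had 67.2% and 64.3%, with 415 and 446 counts on the retained-intron transcript Med12-208.

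**Figure D4:**
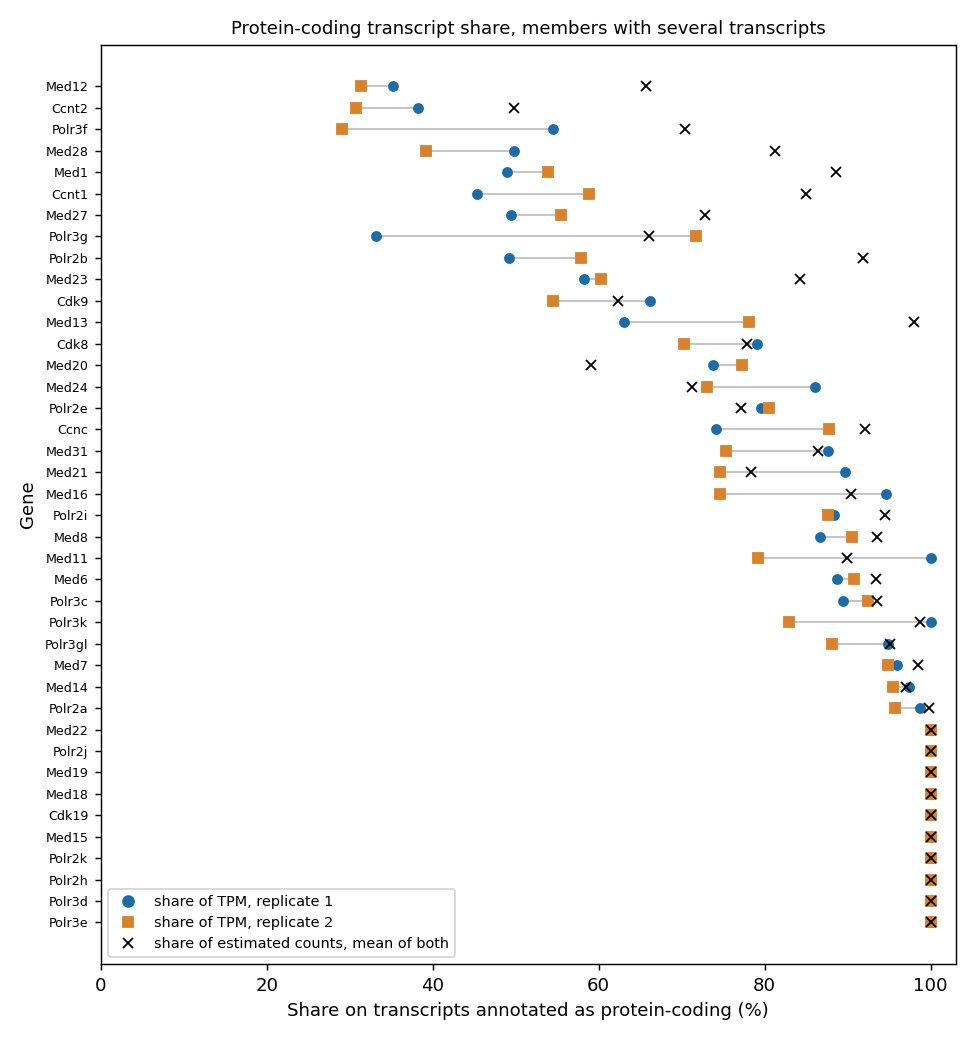
Percent of each gene's level on transcripts annotated as protein-coding, for the 40 genes with several transcripts; circles and squares are the share of TPM in replicates 1 and 2, and crosses the share of estimated counts averaged over both. Med12 has the lowest mean share of TPM, and for Polr2b, Med1 and Med13 the cross lies far right of the circle and square.

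The main transcript could differ between the libraries only for the 40 genes with counts and several annotated transcripts. It was the same for 46 of the 58 genes, the 17 with 1 transcript and Med12l at 0 included, and differed for 12. Among the 11 of these with at least 100 counts in each library, Med22 and Med6 moved most. Med22-202 held 34.7% of the gene's TPM in replicate 1 and 88.8% in replicate 2, and Med6-201 held 25.5% and 77.2%. Polr3g-201 held 29.0% and 48.9%, where Polr3g-203, a processed transcript of 424 nucleotides with 20.1 and 0 counts, was the main one in replicate 1. Cdk8-205, Ccnc-201, Med7-201 and Polr3f-201 led in replicate 1, with 37.8%, 32.7%, 52.4% and 53.7%, against 17.5%, 13.1%, 22.8% and 27.8% in replicate 2. Med24, Med27, Med23 and Ccnt2 completed the 11. Med23 was the most divided gene, with its first transcript Med23-202 at 24.9% and 26.6%, followed by Ccnt2, Med1, Med12 and Cdk9. These shares are estimates over annotated transcripts and were not tested between the libraries.

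Reads from overlapping genes could be part of some levels. Of the 58 genes, 27 overlap a gene on the opposite strand and 13 a gene on the same strand. Overlaps were not counted over all genes, and the sources used here do not say whether counting used the strand. Med19 had 474 and 390 counts beside Tmx2 (908 and 662) and Zdhhc5 (1044 and 1019). Ccnc had 753 and 528 counts beside Tstd3 (670 and 418), and Polr2i had 84 and 46 beside Tbcb (83 and 48). Their part in the levels was not tested.

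The subunit genes kept nearly the same order in both libraries. Across the 58 genes, which are not independent replicates, Spearman's rho of TPM between replicate 1 and replicate 2 was 0.971 and Pearson's r of log2(TPM + 1) was 0.973. Transcript length was only weakly related to level, with a rho of 0.115 over 57 genes with counts and of -0.09 over the 8345 detected coding genes.

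The partners of these complexes, in 3 further lists, were nearly all detected too. All 33 general initiation factors of RNA polymerase II were detected, with a median of 11.8 TPM in replicate 1 and 6.58 TPM in replicate 2 and 0 called between the libraries. Taf10 (81.2 and 47.5 TPM) and Taf9 (53.7 and 21.4 TPM), subunits of TFIID, were highest, and Taf13 (2.98 and 1.93 TPM) and Taf4b (2.58 and 1.58 TPM) lowest. Of 20 listed RNA polymerase III partners 19 were measured, all 19 were detected, and 0 were called. Their median was 10.05 TPM in replicate 1 and 7.12 TPM in replicate 2, above that of the RNA polymerase III subunits. Over all tested genes, 2.22% were called higher in replicate 1 and 5.08% in replicate 2. Gtf3a, the 5S gene factor, had 37.8 and 20.8 TPM and Polr1d, a subunit shared by RNA polymerases I and III, had 27.2 and 14.7 TPM, while Snapc1 (2.74 and 1.68 TPM) and Snapc2 (1.85 and 1.44 TPM) were lowest.

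Among 31 pausing and elongation factors 30 were detected and 1 of 30 tested was called, Nelfcd, a subunit of the pausing factor NELF. Nelfcd had 149 counts in replicate 1 and 280 in replicate 2. The ratio was 0.475 (95% interval 0.387 to 0.581, adjusted p = 1.43e-12 by the exact binomial test). In TPM, which divides by length, Nelfcd had 6.17 in replicate 1 and 6.1 in replicate 2. On that scale the median detected coding gene was 1.55-fold higher in replicate 1. The call thus holds for counts without length, and a difference in TPM was not tested. Nelfb, another NELF subunit, had 204 and 348 counts and a ratio of 0.523, just short of the 2-fold limit, and was named after its value was seen. Tcea1, an elongation factor, was the highest of the list with 108.8 and 61.8 TPM, where the list median was 16.25 and 9.77 TPM. Hexim2, an inhibitor of P-TEFb, had 1.28 and 1.70 TPM, and Ell3 had 0 counts in both libraries.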

How the data were processed

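Total RNA sequencing of 2 G1E libraries was used, with 1 gene table and 1 transcript table each. Per the file headers, the authors deposited expected counts (estimated, not all whole), which were rounded for tests. Per the file headers, the deposited TPM is per length and has a fixed sum, as has a posterior mean TPM. The deposited FPKM, per the file headers, is scaled to length and depth. The deposited credibility bounds, read as signal values, belong to TPM, and their level was not given in the sources used here. The deposited isoform share is a percent of the gene's TPM, per the file headers. The deposited file records name mm10 and GENCODE M4, but no aligner or quantifier is named in the sources used here.

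GENCODE M21 (GRCm38) gave names, transcript types and positions and matched 42462 of 43346 genes. Libraries were compared by a two-sided exact binomial test on counts (SciPy 1.17.1) against the library sizes scaled by TMM (edgeR 4.0.16, R 4.3.3), with Benjamini-Hochberg adjustment over all genes tested. A first run took the doubled smaller tail as the two-sided p, and was replaced after its counts were seen. Intervals are 95% Clopper-Pearson. Intervals and floors (3 counts, or 0.0948 CPM in replicate 1 and 0.0739 CPM in replicate 2) cover counting error only. Levels are TPM with a pseudocount of 1 on log scales. The test was tried on simulated counts that held counting error only. They left out the dispersion of these libraries, so that trial does not check the error rate of the test here. Python 3.11.15, pandas 2.3.3, NumPy 2.4.6, matplotlib 3.10.9 and DESeq2 1.42.0 (size factors) were used besides. Promoters came from a RefSeq table, trimmed to 250 bases, with motifs searched on both strands.

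Genes given in full were Polr2a, Med1, the paralogue pairs, the 2 highest and 2 lowest of each group, and genes called or at 0. A few genes that these rules name are not reported here. Others were named by role after their values were seen. The genes, lists and tests were chosen with earlier results of these data known, and the counterpart pairs, the view on protein-coding transcripts, the motifs and the printed promoters after the values were seen. Gtf3c2 was not analysed here.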

Additional observations from a re-analysis of the deposited data

How the results depend on the processing

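No paired analysis was possible because the labels give 1 group. With libraries scaled to total counts, 4 subunit genes were called higher in replicate 1 and the median log2 ratio was 0.57, against 0.52 over all genes. Scaled to ERCC spike-ins, 57 were called higher in replicate 1 with a median of 4.54, against 4.49 over all genes, so directions given for single genes hold relative to the median gene only. A 1.5-fold limit called 2 higher in replicate 1 and 2 in replicate 2. The other scalings, filters, the negative binomial exact test and the doubled smaller tail called 0 in either direction. A limit of 5 TPM left 34 genes detected, and rescaling TPM over nuclear protein-coding genes gave a median of 46.0 ± 2.22.

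The log2 ratio of Polr3g over Polr3gl was 0.96 from CPM, -0.86 on protein-coding transcripts, and -0.24 without replicate 1 and 0.015 without replicate 2, which turned its sign. Cdk8 over Cdk19 was 0.27 from CPM and 1.10 on protein-coding transcripts, and Ccnt1 over Ccnt2 was -0.35 there. Med12 over Med12l was 7.62 with a pseudocount of 0.1, 3.87 from FPKM, 5.57 from CPM and 2.91 on protein-coding transcripts. CPM leaves out length, and the pseudocount sets the size where Med12l is at 0. The detection of 54 genes became 57 without replicate 2 and 54 without replicate 1. The cause of the other shifts was not tested. Polr2k, at 15 and 8 counts, has an interval of its ratio from 0.666 to 4.56, so depth limits what its value shows.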
